A study of Homo sapiens with 12 samples.

Results

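Interferon-stimulated antiviral genes are the genes that cells switch on when an interferon tells them that a virus may be near. A list of 44 of them was followed through 12 arrays of 2 human hepatocellular carcinoma lines, Hep3B and SNU449. A gene was measured where at least 1 probe set, the group of short probes that reads 1 transcript region, carried its symbol and no other. That held for 43 of the 44 genes, through 76 probe sets, among 19775 genes and 54613 probe sets on the array. STAT2 was not analysed here. Of the 43 genes 20 had 1 probe set and 23 had several, and the brightest one over the 12 arrays stood for the gene.

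The 4 groups held 3 arrays each. Hep3B cells had 2 μM DAAD2 for 72 h, and their controls had the vehicle, 0.1% DMSO, for 72 h. SNU449 cells had 20 μM DAAD2 for 72 h, and their controls had the same vehicle for the same time. DAAD2 is a derivative of dehydroabietylamine, a diterpene amine, with an N-acetyl-L-cysteine group, and the labels call Hep3B sensitive to it and SNU449 resistant. The dose differed with the line, so the line and the dose cannot be told apart in any comparison of the 2 responses. Each line was grown alone in plates, and the protocols name no added interferon.

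Levels are log2 values, on which a difference of 1 is a doubling. The medians of the 12 arrays lay between 3.71 and 3.85, and a gene whose group mean was below that of its arrays is called dim here, with the size of its differences less certain. Albumin (ALB), a hepatocyte gene, averaged 14.53 ± 0.03 in Hep3B controls and 3.18 ± 0.18 in SNU449 controls, and vimentin (VIM), a mesenchymal gene, averaged 10.24 ± 0.40 in Hep3B controls and 13.94 ± 0.08 in SNU449 controls (SD, n = 3 each). Of the other mesenchymal markers ZEB1, SPARC and CDH2 were lower in Hep3B controls too, and FN1 was higher there, at 11.56 in Hep3B controls and 10.75 in SNU449 controls (limma, adjusted p = 0.00051). Of 5 leukocyte markers PTPRC and TYROBP were dim in every group, CD3E and LST1 were above the median in every group (group means of 4.35 to 4.95 for CD3E and 3.77 to 4.28 for LST1), and CD14 was above it in Hep3B alone, at 5.78 with DAAD2 and 5.37 in controls; what these levels stand for was not tested. As a sign of RNA integrity, the GAPDH probe sets at the 3′ end exceeded those at the 5′ end by 1.99 on SNU449 DAAD2 array 2, against 0.34 to 0.97 on the other SNU449 arrays, and by 1.51 on Hep3B control array 1, against 0.45 to 1.05 on the other Hep3B arrays. The same measure of ACTB was highest on Hep3B DAAD2 array 3, at 3.27, with SNU449 DAAD2 array 2 next, at 3.04.

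Interferons bind receptors at the cell surface, whose JAK kinases then activate STAT proteins. Type I and type III interferons lead to ISGF3, a complex that holds IRF9 and binds the interferon-stimulated response element (ISRE) in promoters. Type II interferon acts through STAT dimers at a second element, the gamma-activated site (GAS). The induced genes block viral RNA and protein synthesis, sense viral nucleic acid, or feed back on the signal itself.

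The promoters are shown first, because the response element is the sequence through which ISGF3 acts. RefSeq promoter windows (GRCh38.p14), running from 250 bases before a transcription start to 50 bases after it, were found for 36 of the 43 genes, as 50 windows. The ISRE was searched as GAAA, any 2 bases and GAAA again, and the GAS as TTC, any 3 bases and GAA, each on both strands. Neither motif contains the other. The ISRE letters stood in 30 of the 50 windows (60.0%), against 3.57% of the 35116 windows of all genes. The GAS letters stood in 13 of the 50 windows (26.0%), against 7.66% of all windows. By gene, 25 of the 36 had the ISRE letters in at least 1 window and 11 had the GAS letters. A match of letters is a description of the window and not a bound site.

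The whole windows are given for the 3 genes that changed with DAAD2 in SNU449, or differed between the responses of the lines, and that held the ISRE letters. Capitals mark the match, on either strand. IFIT1 is on the plus strand at chr10:89392373-89392672, PARP9 on the minus strand at chr3:122564251-122564550 and PLSCR1 on the minus strand at chr3:146544558-146544857.
IFIT1: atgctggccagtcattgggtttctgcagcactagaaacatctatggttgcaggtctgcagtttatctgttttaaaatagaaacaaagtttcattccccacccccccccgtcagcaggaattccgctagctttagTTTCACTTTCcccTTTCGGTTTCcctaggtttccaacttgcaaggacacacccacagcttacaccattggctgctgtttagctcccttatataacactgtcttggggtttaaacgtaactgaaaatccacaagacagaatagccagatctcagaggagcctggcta
PARP9: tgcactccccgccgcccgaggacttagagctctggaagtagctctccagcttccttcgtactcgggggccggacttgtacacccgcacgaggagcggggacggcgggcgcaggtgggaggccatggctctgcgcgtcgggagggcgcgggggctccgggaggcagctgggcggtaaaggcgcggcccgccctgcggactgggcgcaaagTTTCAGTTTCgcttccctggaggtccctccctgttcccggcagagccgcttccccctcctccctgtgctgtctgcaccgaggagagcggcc
PLSCR1: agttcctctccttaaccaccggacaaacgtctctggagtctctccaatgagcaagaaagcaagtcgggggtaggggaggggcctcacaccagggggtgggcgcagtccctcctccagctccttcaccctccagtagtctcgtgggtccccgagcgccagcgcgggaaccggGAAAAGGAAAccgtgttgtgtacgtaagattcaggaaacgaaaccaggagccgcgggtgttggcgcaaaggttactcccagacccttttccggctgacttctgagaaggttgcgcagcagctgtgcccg

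The IFIT1 window held 2 matches, at -116 and -103 counted from the first transcribed base as 0. Those of PARP9 and DTX3L are 1 and the same match. These neighbouring genes of chromosome 3 run in opposite directions, and the match stood at -41 of PARP9 and at -6 of DTX3L. The shared match, read on the DTX3L strand with 8 bases on each side, is shown beside matches of genes that were bright in 1 line or the other but were not called after DAAD2.
PARP9 and DTX3L: agggaagcGAAACTGAAActttgcgc
ISG15, at -107: gggaaaggGAAACCGAAActgaagcc
IFI6, at -115: agagagggGAAAATGAAActgcagag
MX1, at 11: gcagaaatGAAACCGAAActgaattg
OAS3, at -143: aaagaaacGAAACTGAAAgcagggaa
EIF2AK2, at -6: tccaagggGAAAACGAAActgagaac
IFIT5, at -45: aagcttcaGAAACCGAAActtaatag

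The same core of letters, GAAACTGAAA, stood before PARP9, DTX3L and OAS3 among these. IRF1 had no ISRE letters in its window and held the GAS letters at -124, shown here with the GAS in capitals because IRF1 was among the genes that rose.
IRF1: agcctgatTTCCCCGAAatgacggc
UBE2L6, the gene with the largest rise, had neither motif in its window. Of the 4 genes that rose in SNU449 and had a window, IFIT1 and PLSCR1 held the ISRE letters and IRF1 and UBE2L6 did not, against 23 of 32 among the genes that were not called. The GAS letters stood in 2 of the 4, IRF1 and PLSCR1, against 9 of 32.

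In SNU449 cells, 5 of the 43 genes were higher after 20 μM DAAD2 than after vehicle (11.6%), and 0 were lower. They were UBE2L6, IFIT2, IFIT1, IRF1 and PLSCR1, with rises between 1.61-fold and 2.28-fold. Among all 19775 genes 1.82% were called higher and 0.561% lower by the same rule, limma with Benjamini-Hochberg adjustment over all probe sets and an adjusted p under 0.05. The median difference of the 43 genes was 0.16 on the log2 scale, against 0.00 over all genes, and the range ran from -0.49 for USP18 to 1.19 for UBE2L6. By probe set, 8 of 76 were higher (10.5%), against 1.04% of all probe sets. Treated and control SNU449 arrays are told apart by the sample labels alone, and the headings of the means in the supplementary list of the study run the other way for this line, so each direction in SNU449, and each comparison of Hep3B with SNU449, rests on those labels. In extracts of whole cultures, a change in every cell and a change in the share of cells that express a gene cannot be told apart.

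**Figure D1:**
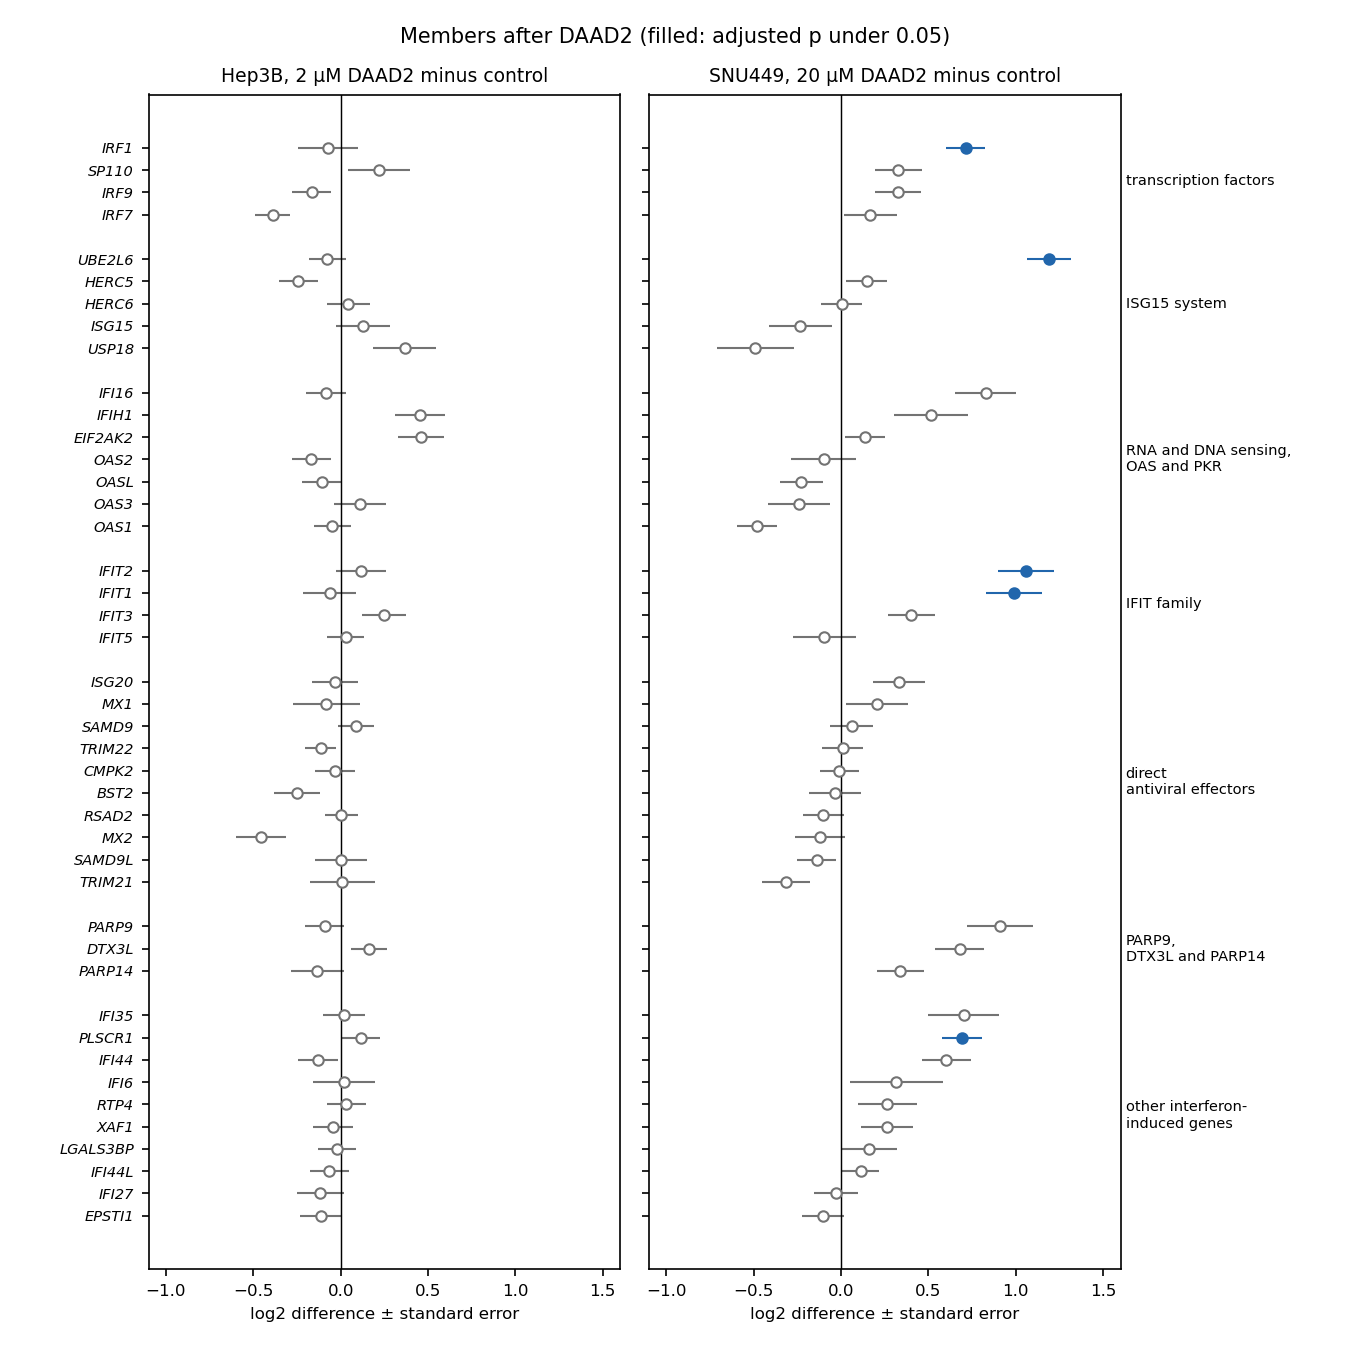
Log2 difference between DAAD2 and control arrays for each of the 43 genes (x axis), with the standard error as a bar, in Hep3B at 2 μM (left) and in SNU449 at 20 μM (right); genes run down the page by role, and filled points have an adjusted p under 0.05. The 5 filled points, for IRF1, UBE2L6, IFIT2, IFIT1 and PLSCR1, are all in SNU449, and the Hep3B points lie between -0.46 and 0.46.

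Looser rules were counted too. With an unadjusted p under 0.05, 15 of the 43 genes were higher in SNU449 after DAAD2, against 9.42% of all genes, and 1 was lower (OAS1), against 7.18% of all genes. Every DAAD2 array lay above every control array for 15 of them, against 11.2% of all genes, and below for 1 of them, against 8.94%. For 1 gene, the smallest p of an exact two-sided permutation test at this group size is 0.1, so the calls rest on the spread that limma shares across all probe sets. Without DAAD2 array 1, control array 2 or control array 3 of SNU449, UBE2L6 was the 1 gene of the 43 still called, and without DAAD2 array 2 the same 5 genes were called.

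UBE2L6, the enzyme that carries ISG15 to its target proteins, showed the largest difference of the 43 genes. Its level was 8.69, 8.39 and 8.75 on the SNU449 DAAD2 arrays, against 7.41, 7.39 and 7.46 on the SNU449 control arrays. The 3 treated arrays were all higher than the 3 controls by more than the spread within either group, and the difference was 1.19 ± 0.12 (SE), or 2.28-fold (limma, adjusted p = 0.00497). It was also called with any 1 of the 6 arrays left out.

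IFIT2 and IFIT1 belong to a family of proteins that bind foreign RNA and stop its translation. IFIT2 was at 7.42, 7.04 and 7.08 on the SNU449 DAAD2 arrays, against 5.84, 6.33 and 6.20 on the control arrays. The groups did not overlap, and the difference was 1.06 ± 0.16 (SE; limma, adjusted p = 0.0211). The second IFIT2 probe set was not called, with a difference of -0.18 (limma, adjusted p = 0.738), so the 2 probe sets of this gene disagreed. IFIT1, measured by 1 probe set, was at 8.19, 8.17 and 7.62 on the SNU449 DAAD2 arrays, against 6.98, 7.03 and 6.99 on the control arrays. All 3 treated arrays were higher, although array 3 was nearer to the controls, and the difference was 0.99 ± 0.16 (SE; limma, adjusted p = 0.0252).

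The other 2 members of the family were not called. IFIT3, which binds IFIT1 and stabilises it, was at 8.02, 7.82 and 8.24 in SNU449 cells with DAAD2, against 7.57, 7.58 and 7.73 in controls, with a difference of 0.40 (limma, adjusted p = 0.236). By the second IFIT3 probe set the groups overlapped, with a difference of 0.14 (limma, adjusted p = 0.847). IFIT5 was at 7.27, 7.85 and 7.55 in SNU449 cells with DAAD2, against 7.52, 7.49 and 7.95 in controls. The IFIT5 values overlapped and their difference was -0.10 (limma, adjusted p = 0.914), while the second IFIT5 probe set was at 0.31 (limma, adjusted p = 0.416). IFIT1 and IFIT5 are neighbours on chromosome 10, and IFIT2 and IFIT3 are another such pair.

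**Figure D2:**
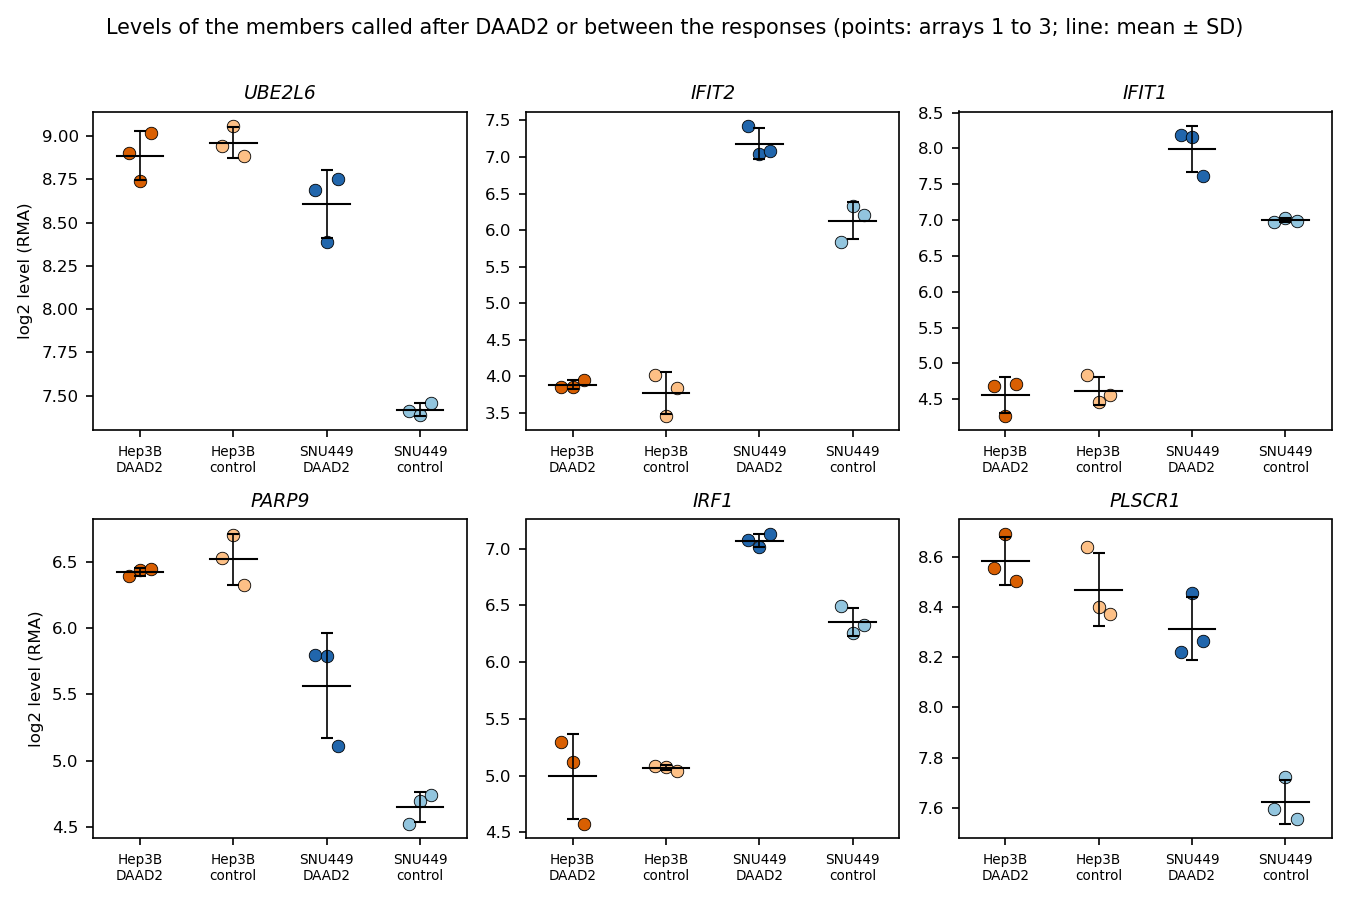
Log2 level (y axis, RMA) of the 6 genes called after DAAD2 or between the responses of the lines, in each of the 4 groups, with 1 point per array and the mean ± SD as lines (n = 3). In SNU449 the DAAD2 points of each gene lie above its control points, while in Hep3B the 2 groups overlap.

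Among the transcription factors, IRF1 was called. IRF1 binds elements like the ISRE and is itself induced by interferon through STAT dimers. It was at 7.07, 7.01 and 7.13 on the SNU449 DAAD2 arrays, against 6.49, 6.25 and 6.33 on the control arrays. The arrays within each group were close together, and the difference was 0.71 ± 0.11 (SE), or 1.64-fold (limma, adjusted p = 0.0232). The second IRF1 probe set was higher too, by 0.75 (limma, adjusted p = 0.035).

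IRF9, the DNA-binding subunit of ISGF3, was at 8.30, 8.39 and 8.24 in SNU449 cells with DAAD2, against 7.85, 8.23 and 7.87 in controls. The treated arrays were just above the controls, with a difference of 0.33 that missed the threshold (limma, adjusted p = 0.366). SP110, a nuclear body protein, differed by 0.33 (limma, adjusted p = 0.379), and its 5 probe sets ran from -0.41 to 0.33. IRF7, the factor that amplifies type I interferon genes, differed by 0.17 with overlapping groups (limma, adjusted p = 0.781).

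PLSCR1, a phospholipid scramblase of the cell membrane that interferon induces and that restricts viruses, was the fifth called gene. It was at 8.22, 8.46 and 8.27 on the SNU449 DAAD2 arrays, against 7.59, 7.72 and 7.55 on the control arrays. All treated arrays were higher, by 0.69 ± 0.11 (SE), or 1.61-fold (limma, adjusted p = 0.0270). A second probe set was also higher, by 0.92 (limma, adjusted p = 0.0107), and the last of its 3 probe sets, dim in every group, differed by 0.12.

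PARP9, DTX3L and PARP14 form a group of their own: PARP9 and DTX3L act as a pair that modifies histones and the ADP-ribose mark, and PARP14 adds that mark. None of the 3 was called in SNU449, and each had an unadjusted p under 0.05. PARP9 was at 5.80, 5.79 and 5.11 on the SNU449 DAAD2 arrays, against 4.53, 4.70 and 4.74 on the control arrays, a difference of 0.91 (limma, adjusted p = 0.0586). DTX3L was at 7.37, 7.30 and 7.43 with DAAD2, against 6.97, 6.53 and 6.56 in controls, a difference of 0.68 (limma, adjusted p = 0.0570). Both genes had treated arrays above every control array. PARP14 was at 5.43, 5.53 and 5.15, against 4.98, 4.94 and 5.18 in controls, and these groups overlapped (difference 0.34, limma, adjusted p = 0.355). The second PARP9 probe set had a difference of the other sign, -0.20 (limma, adjusted p = 0.513), with every treated array below every control array.

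The sensors of nucleic acid were uneven. IFI16, which binds DNA, was at 4.39, 4.44 and 4.73 in SNU449 cells with DAAD2, against 3.34, 3.78 and 3.96 in controls, where it was dim. The groups did not overlap, and the difference of 0.83 missed the threshold (limma, adjusted p = 0.0632). IFIH1, the long double-stranded RNA sensor MDA5, was at 4.68, 4.84 and 4.40 with DAAD2, against 4.38, 3.64 and 4.35 in controls. It differed by 0.52 (limma, adjusted p = 0.369), with the lowest treated array only just above the highest control array.

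OAS1, which makes the 2-5A signal for RNase L, was the member on the other side. It was at 6.25, 6.35 and 6.26 on the SNU449 DAAD2 arrays, against 6.66, 6.94 and 6.70 on the control arrays. Every treated array was below every control array, and the difference of -0.48 missed the threshold (limma, adjusted p = 0.099). By the second OAS1 probe set the groups overlapped, with a difference of -0.32 (limma, adjusted p = 0.618). The neighbours of OAS1 on chromosome 12, OAS3 and OAS2, had overlapping groups and differences of -0.24 (OAS3) and -0.10 (OAS2). OASL differed by -0.23. EIF2AK2, the kinase PKR that stops translation, was bright in SNU449 and differed by 0.14 (limma, adjusted p = 0.751).

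ISG15 itself, the ubiquitin-like protein that UBE2L6 hands on, was not called. It was at 5.28, 5.55 and 4.97 on the SNU449 DAAD2 arrays, against 5.21, 5.59 and 5.69 on the control arrays. The groups overlapped in part, with a difference of -0.23 (limma, adjusted p = 0.725). USP18, which takes ISG15 off again and dampens the type I receptor, was at 4.48, 4.77 and 3.79 with DAAD2, against 4.76, 4.85 and 4.89 in controls. Array 3 was the low one, and the difference was -0.49 (limma, adjusted p = 0.437). The ISG15 ligases HERC5 and HERC6 differed by 0.15 (HERC5) and 0.00 (HERC6).

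None of the 10 direct antiviral effectors was called in SNU449, and the median of their differences was -0.02. MX1, a dynamin-like protein that traps viral nucleocapsids, was at 4.32, 3.72 and 3.97 with DAAD2, against 4.03, 3.59 and 3.77 in controls. These values overlapped. ISG20, an RNA exonuclease, had the largest difference of the 10, 0.33 by its brighter probe set (limma, adjusted p = 0.424), and 0.69 by the other one (limma, adjusted p = 0.0481). MX2 differed by -0.12, BST2 by -0.03 and TRIM21 by -0.31. RSAD2, CMPK2, TRIM22 and SAMD9 were dim in every group and differed by -0.10 (RSAD2), -0.01 (CMPK2), 0.01 (TRIM22) and 0.06 (SAMD9), and SAMD9L differed by -0.14.

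Among the 10 other interferon-induced genes, PLSCR1 alone was called. IFI35 was at 7.88, 7.28 and 7.68 in SNU449 cells with DAAD2, against 6.86, 7.28 and 6.60 in controls, a difference of 0.70 (limma, adjusted p = 0.169), with DAAD2 array 2 and control array 2 nearly level. IFI44 was at 3.69, 3.79 and 4.17 with DAAD2, against 3.33, 3.30 and 3.21 in controls, a difference of 0.60 from a dim level (limma, adjusted p = 0.0879). IFI6, a mitochondrial and endoplasmic reticulum protein that is among the most inducible of these genes in many cells, was at 5.71, 4.88 and 5.79, against 4.74, 5.50 and 5.20 in controls, and the groups overlapped. RTP4, XAF1, IFI44L, IFI27 and EPSTI1 were dim in every group, with differences from -0.10 (EPSTI1) to 0.27 (RTP4). LGALS3BP, a secreted glycoprotein, differed by 0.16.

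**Figure D3:**
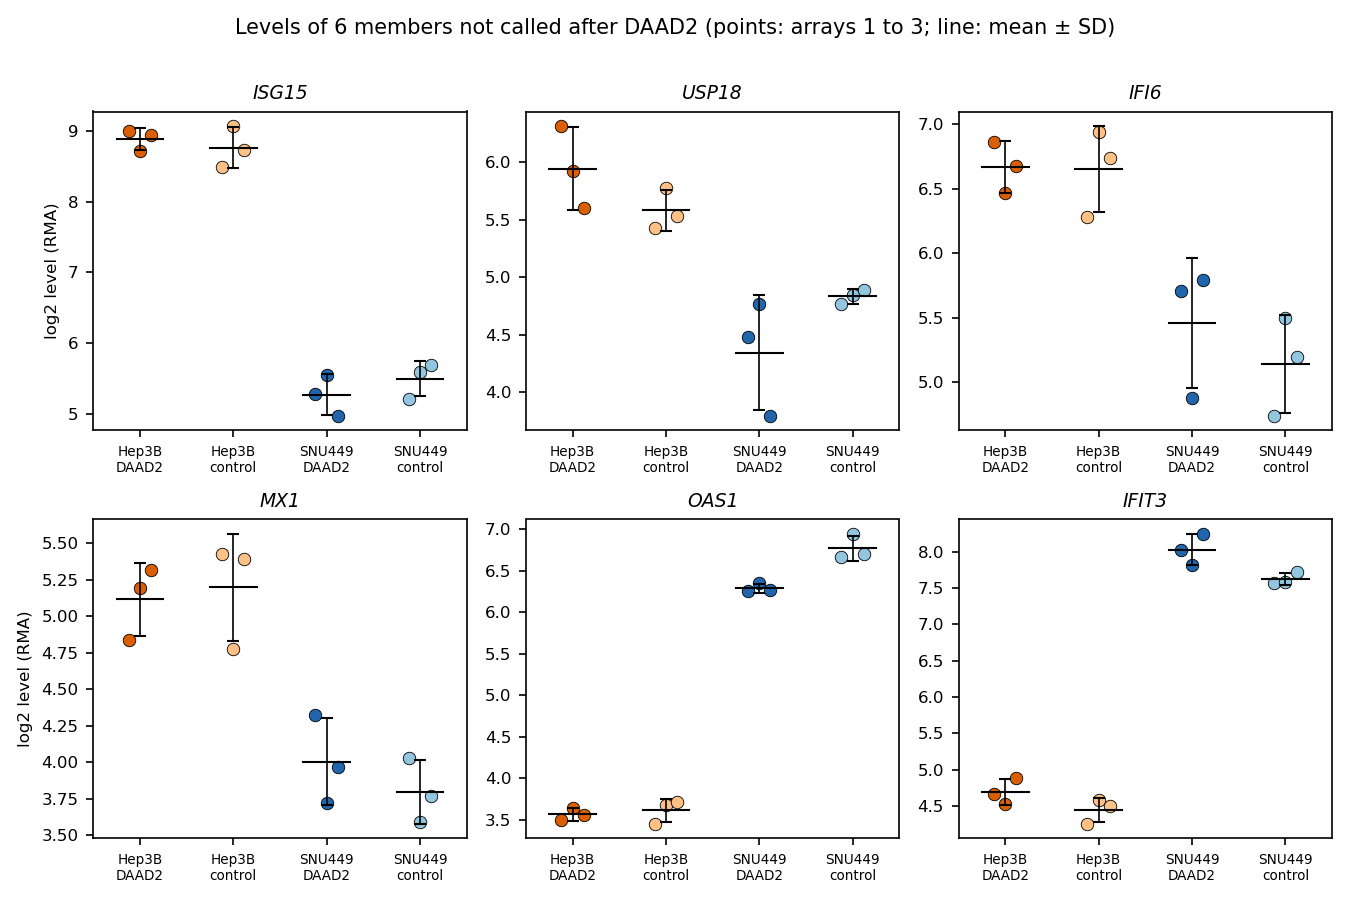
Log2 level (y axis, RMA) of 6 genes that were not called after DAAD2, in each of the 4 groups, with 1 point per array and the mean ± SD as lines (n = 3); these genes were picked after their values had been seen. ISG15, USP18, IFI6 and MX1 are higher in Hep3B and OAS1 and IFIT3 in SNU449, and the distance between the lines exceeds that between DAAD2 and control in either line.

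In Hep3B cells, 0 of the 43 genes were called after 2 μM DAAD2, where 0.0% of all genes were called (limma). The lowest adjusted p of the 43 was 0.133 (IRF7). With an unadjusted p under 0.05, 2 genes were higher (EIF2AK2 and IFIH1), against 13.6% of all genes, and 2 were lower (IRF7 and MX2), against 6.63% of all genes. Every DAAD2 array lay above every control array for 2 genes, against 15.9% of all genes, and below for 3, against 10.3%. The median difference was -0.03, against -0.01 over all genes.

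The precision was enough to bound these differences as measured. The 95% intervals of all 43 genes in Hep3B lay between -0.79 and 0.78, so a doubling or a halving of the measured level was outside every one of them. However, 17 of the 43 were dim in both Hep3B groups, where RMA compresses differences. For those 17 the intervals bound the measured difference and not the change in RNA. EIF2AK2 was at 6.87, 7.03 and 6.61 on the Hep3B DAAD2 arrays, against 6.42, 6.21 and 6.51 on the control arrays. Its treated arrays were the higher ones, with a difference of 0.46 that was not called (limma, adjusted p = 0.167). IFIH1 was at 6.32, 6.14 and 6.13, against 5.75, 6.01 and 5.45 in controls, a difference of 0.45 (limma, adjusted p = 0.2).

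MX2, which restricts retroviruses at the nuclear pore, was at 3.89, 3.94 and 4.40 on the Hep3B DAAD2 arrays, against 4.57, 4.62 and 4.41 on the control arrays, a difference of -0.46 (limma, adjusted p = 0.199). IRF7, dim in Hep3B, was at 3.29, 3.36 and 3.28 with DAAD2, against 3.72, 3.81 and 3.57 in controls, a difference of -0.39. Both genes had every treated array below every control array. In the other role groups, the members farthest from 0 were USP18 (0.37), IFIT3 (0.25), DTX3L (0.16) and IFI44 (-0.13), each with overlapping groups.

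None of the 5 genes that rose in SNU449 was called in Hep3B, where 0.0% of all genes were called. UBE2L6 was at 8.90, 8.74 and 9.02 on the Hep3B DAAD2 arrays, against 8.94, 9.06 and 8.89 on the control arrays. IFIT1 was at 4.69, 4.27 and 4.72, against 4.84, 4.46 and 4.57 in controls. PLSCR1 was at 8.56, 8.69 and 8.50, against 8.64, 8.40 and 8.37 in controls. The groups overlapped for each of these genes, and for IFIT2 and IRF1 as well. Their differences in Hep3B were -0.08 (UBE2L6), -0.06 (IFIT1), 0.11 (PLSCR1), 0.11 (IFIT2) and -0.07 (IRF1), with adjusted p-values between 0.671 and 0.885 (limma).

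**Figure D4:**
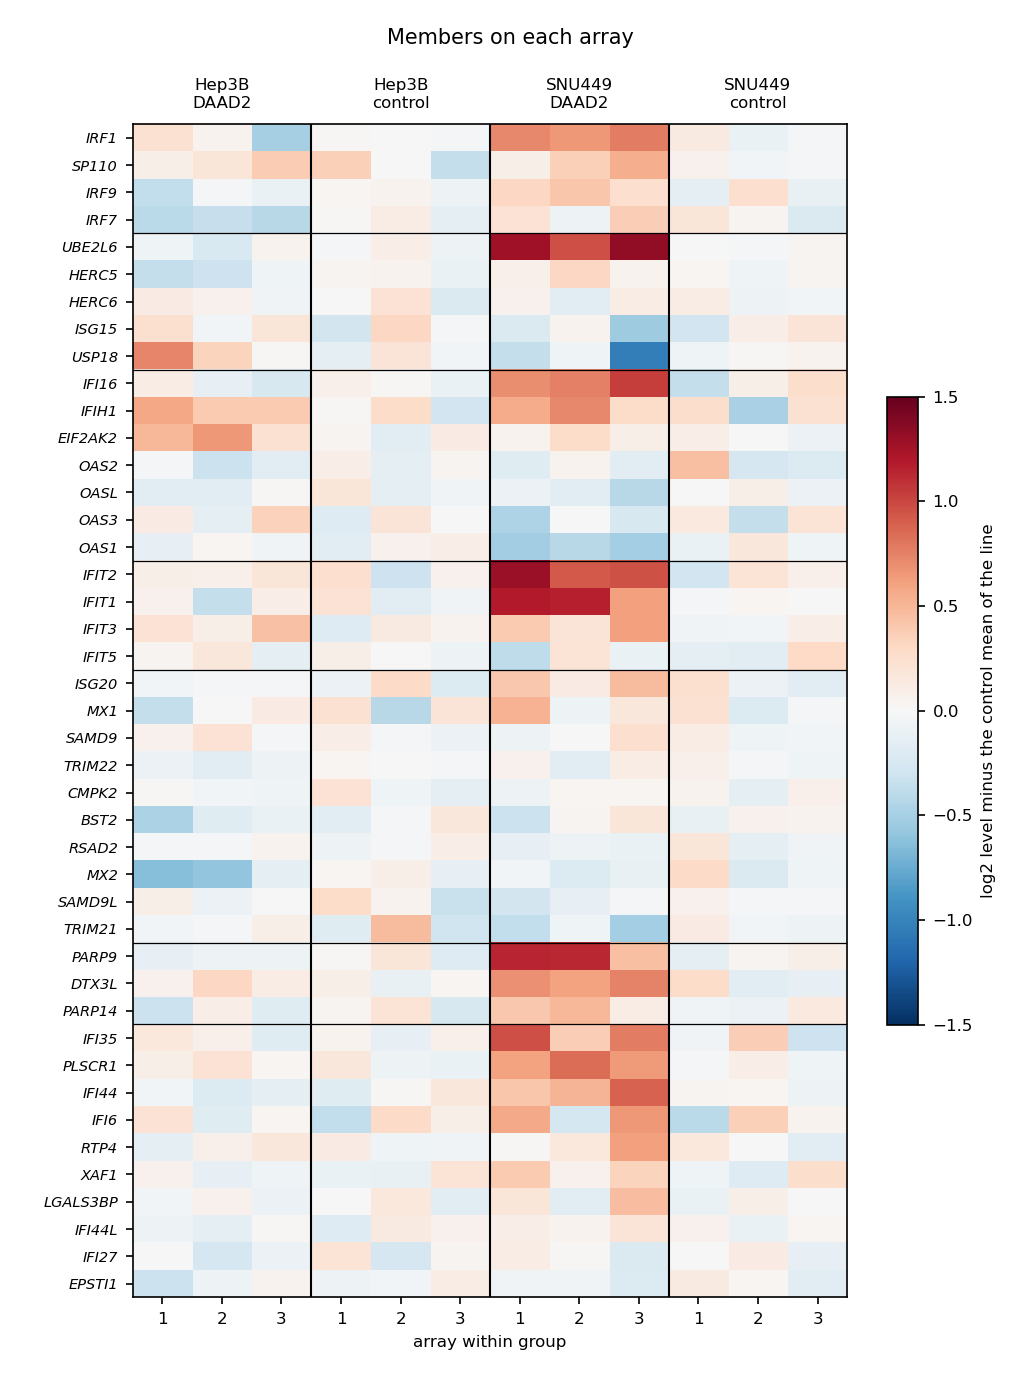
Log2 level of each of the 43 genes (rows, by role) on each of the 12 arrays (columns, 4 groups of 3), shown as the distance from the control mean of the same line: red is higher, blue is lower, and the scale ends at 1.5 either way. UBE2L6, IFIT2 and IFIT1 are the darkest red rows on the SNU449 DAAD2 arrays, and USP18 is blue on array 3 of them.

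The difference between the responses was tested as the Hep3B response minus the SNU449 response, over all 12 arrays. It was below 0 and called for 3 of the 43 genes (6.98%), and above 0 for 0 of them, against 1.46% of all genes below and 1.82% above (limma). UBE2L6 differed by -1.27 ± 0.16 (SE; limma, adjusted p = 0.0027), IFIT1 by -1.05 ± 0.23 (SE; limma, adjusted p = 0.037) and PARP9 by -1.003 ± 0.23 (SE; limma, adjusted p = 0.0461). The second PARP9 probe set did not pass, at -0.26 (limma, adjusted p = 0.517). By the probe sets that stood for these 3 genes, the SNU449 arrays with DAAD2 were all above their controls and the Hep3B groups overlapped. By the second PARP9 probe set, every DAAD2 array was below every control array in both lines. That probe set differed by -0.20 in SNU449 (limma, adjusted p = 0.513) and by -0.46 in Hep3B (limma, adjusted p = 0.159). With each of the 12 arrays left out in turn, UBE2L6 was called 12 times, IFIT1 3 times and PARP9 2 times.

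IFIT2, IRF1 and PLSCR1, called in SNU449 alone, were not shown to respond differently in the 2 lines. Their differences between the responses were -0.94 (IFIT2; limma, adjusted p = 0.0527), -0.79 (IRF1; limma, adjusted p = 0.0826) and -0.58 (PLSCR1; limma, adjusted p = 0.0788). IFI16 was at -0.91 (limma, adjusted p = 0.0527). The second probe sets of IRF1 and PLSCR1 and the dimmer one of ISG20 did pass, at -0.97 (IRF1; limma, adjusted p = 0.034), -0.92 (PLSCR1; limma, adjusted p = 0.00627) and -0.95 (ISG20; limma, adjusted p = 0.0463). Over the 43 genes the median was -0.18, against -0.02 over all genes, and 31 of 43 lay below 0, against 10533 of all 19775 genes. For USP18 the sign was opposite, at 0.85 (limma, adjusted p = 0.216).

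The lines differed more in what they expressed without the drug. Between vehicle-treated cells, 12 of the 43 genes were higher in Hep3B (27.9%) and 15 were lower in Hep3B than in SNU449 (34.9%), against 21.4% and 19.4% of all genes (limma). The differences reached from -4.13 for IFIT5 to 3.27 for ISG15, with a median of -0.11. These are levels of 2 different tumour lines.

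The IFIT family was the most one-sided, with 4 of 4 members lower in Hep3B controls. IFIT5, whose protein binds RNA with a 5′ phosphate, was at 3.61, 3.51 and 3.45 in Hep3B controls, where it was dim, against 7.52, 7.49 and 7.95 in SNU449 controls (difference -4.13, limma, adjusted p = 6.08e-08). IFIT3 was at 4.26, 4.58 and 4.50, against 7.57, 7.58 and 7.73 in SNU449 controls (difference -3.18, limma, adjusted p = 9.65e-08). The second probe sets of both genes were lower by less, with differences of -2.08 (IFIT5) and -1.17 (IFIT3). IFIT1 and IFIT2 were lower by differences of -2.38 (IFIT1; limma, adjusted p = 6.45e-07) and -2.35 (IFIT2; limma, adjusted p = 9.06e-06). The second IFIT2 probe set was lower by less, with a difference of -0.62 (limma, adjusted p = 0.00742). No Hep3B control array reached the lowest SNU449 control array for any of the 4 genes.

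Of the 5 genes of the ISG15 system, 3 were higher in Hep3B controls and 1 was lower. ISG15 was at 8.49, 9.07 and 8.73 in Hep3B controls, against 5.21, 5.59 and 5.69 in SNU449 controls, a difference of 3.27 (limma, adjusted p = 1.2e-06). UBE2L6 was higher in Hep3B controls by 1.54 (limma, adjusted p = 2.64e-06) and USP18 by 0.75 (limma, adjusted p = 0.000924), while the ligase HERC5, dim in both, was lower by a difference of -0.39 and HERC6 was at -0.33 (limma, adjusted p = 0.0934). After DAAD2, UBE2L6 in SNU449 averaged 8.61 ± 0.20, beside 8.96 ± 0.09 in Hep3B controls (SD, n = 3 each), a distance that was not tested.

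The 2-5A synthetases and sensors were split. OAS1 was at 3.45, 3.68 and 3.71 in Hep3B controls, where it was dim, against 6.66, 6.94 and 6.70 in SNU449 controls (difference -3.15, limma, adjusted p = 1.27e-07). OAS3 (-1.74) and EIF2AK2 (-1.72) were lower in Hep3B too, by the probe sets that stood for them. The second OAS3 probe set, dim in both, was not called, at -0.36 (limma, adjusted p = 0.153). A second EIF2AK2 probe set was lower by less, at -0.69 (limma, adjusted p = 0.00714), and a dim one was at -0.03 (limma, adjusted p = 0.887). IFIH1 was higher in Hep3B, by 1.62 (limma, adjusted p = 0.000416).

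The transcription factors IRF9 (-1.54), IRF1 (-1.29) and IRF7 (-0.51) were lower in Hep3B controls than in SNU449 controls. PARP9 was at 6.53, 6.70 and 6.32 in Hep3B controls, against 4.53, 4.70 and 4.74 in SNU449 controls, and was higher in Hep3B together with DTX3L. The second PARP9 probe set was not called between the controls, with a difference of 0.17 (limma, adjusted p = 0.332). Among the effectors MX1, BST2 and ISG20 were higher in Hep3B, and TRIM21 and SAMD9 were lower. IFI6 was at 6.28, 6.93 and 6.73 in Hep3B controls, against 4.74, 5.50 and 5.20 in SNU449 controls, while IFI35 went the opposite way, at 5.41, 5.23 and 5.43 in Hep3B controls, against 6.86, 7.28 and 6.60 in SNU449 controls.

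**Figure D5:**
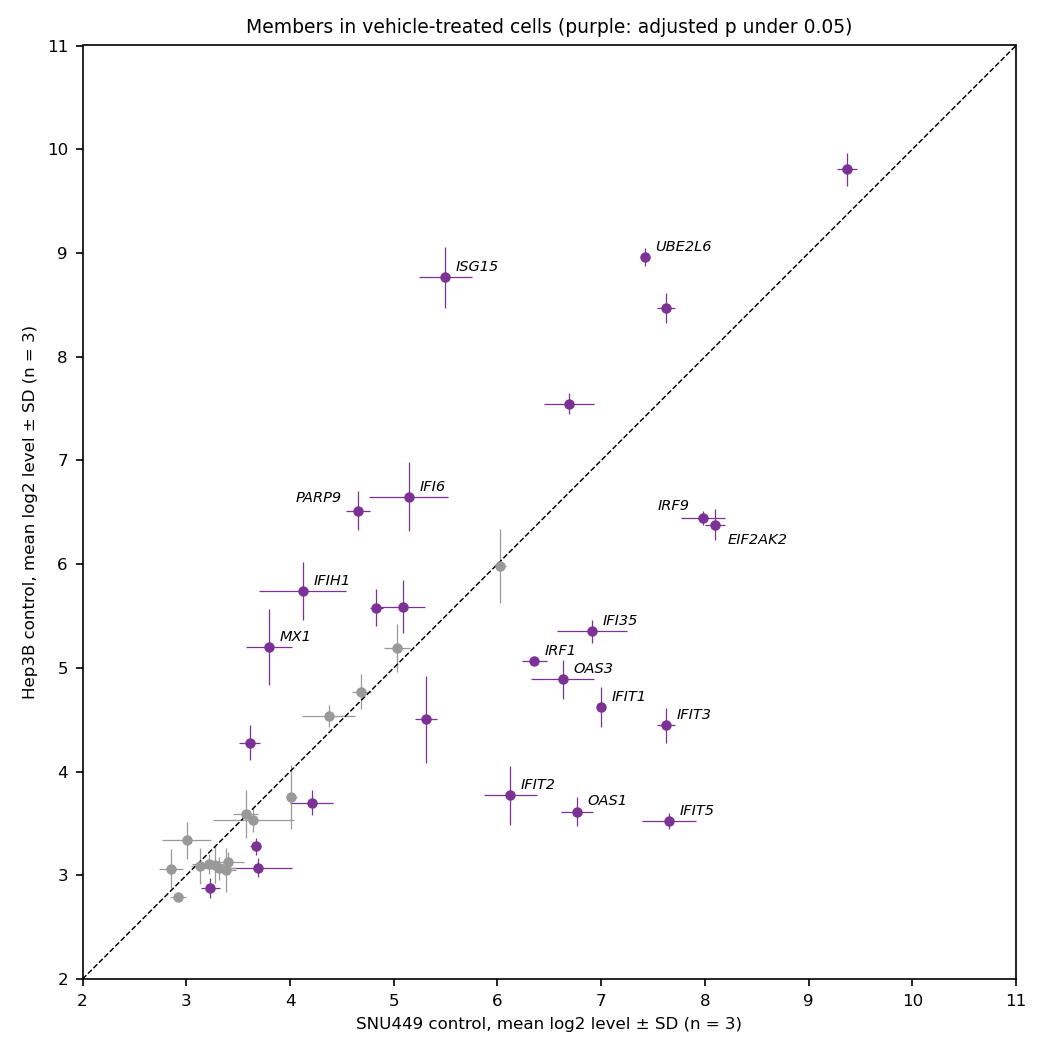
Mean log2 level ± SD (n = 3) of each of the 43 genes in Hep3B controls (y axis) and in SNU449 controls (x axis); the dashed line marks equal levels, purple points have an adjusted p under 0.05, and names are given for differences over 1 log2 unit. ISG15, UBE2L6, PARP9, IFI6, IFIH1 and MX1 lie above the line, and the 4 IFIT genes, OAS1 and OAS3 lie below it.

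By level, 22 of the 43 genes were above the array median in each of the 4 groups and 11 were dim in each of them: HERC6, OAS2, RSAD2, CMPK2, TRIM22, SAMD9, IFI27, IFI44L, XAF1, EPSTI1 and RTP4. RSAD2, or viperin, was at 3.10, 3.15 and 3.12 in SNU449 cells with DAAD2, against 3.41, 3.09 and 3.17 in controls, and IFI27 was at 3.69, 3.59 and 3.35, against 3.57, 3.69 and 3.45. Both genes held the ISRE letters in a promoter window, and neither was above the array median in any group. By the probe sets that stood for them, HERC5, IFI16 and IFI44 were dim in 3 groups and above the median in SNU449 cells with DAAD2 alone. HERC5 was only just above it, at 3.82 beside medians of 3.77 to 3.83 on those arrays (difference 0.15, limma, adjusted p = 0.729). The second IFI44 probe set was dim in every group and differed by -0.02 in SNU449. The second IFI16 probe set had the same pattern of levels, with a difference of 0.59 (limma, adjusted p = 0.526). The third was dim in every group and differed by 0.04.

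The other genes of the pathway gave 1 call after DAAD2, in SNU449. By the same rule 1.82% of all genes were called higher and 0.561% lower in SNU449, and 0.0% were called in Hep3B. Lists this short would hold few calls at those shares. Of the 20 interferon genes listed as ligands 18 were measured, and none was called in Hep3B (lowest adjusted p 0.314, limma) or in SNU449 (0.107, limma). In SNU449 16 of the 18 were dim in both groups, and in Hep3B all 18 were. IFNB1 averaged 3.48 in SNU449 cells with DAAD2 and 3.47 in SNU449 controls, and IFNL1 averaged 3.88 with DAAD2 and 3.82 in controls. IFNA17, the ligand with that lowest adjusted p in SNU449, averaged 3.53 with DAAD2 and 4.28 in controls, a difference of -0.75. Every treated IFNA17 array in SNU449 was below every control array. None of the 6 receptor genes, the 4 measured JAK and STAT genes or the 12 genes that sense nucleic acid upstream of interferon was called in either line.

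The exception was SOCS3, a feedback inhibitor of JAK kinases that many cytokines induce, 1 of 8 negative regulators. SOCS3 was at 8.11, 8.04 and 8.29 on the SNU449 DAAD2 arrays, against 7.07, 7.04 and 6.99 on the control arrays. The groups were far apart, and the difference was 1.12 ± 0.11 (SE; limma, adjusted p = 0.00434). In Hep3B it was dim, at 3.65, 3.17 and 3.55 with DAAD2, against 3.24, 3.40 and 3.88 in controls. The difference between the responses was -1.16 (limma, adjusted p = 0.0211). The rise in SNU449 was called with any of the 6 arrays left out, and the difference between the responses in 8 of 12 such fits, not without Hep3B DAAD2 array 2, SNU449 DAAD2 array 1 or SNU449 control array 2 or 3. With no moderation of the spread neither was called (limma without it, adjusted p = 0.113 in SNU449 and 0.0997 between the responses). SOCS1, its relative that interferon gamma induces, differed by 0.16 in SNU449 (limma, adjusted p = 0.879).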

How the data were processed

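Total RNA for 12 arrays was hybridised to Affymetrix Human Genome U133 Plus 2.0 arrays. The deposited log2 values were made by the authors with RMA, per the labels, and their methods name BRB Array Tools for normalization. RMA corrects the background, normalizes between arrays and summarises each probe set, which compresses differences of dim genes. The number of arrays, 3 per group, limits the precision. The labels speak of triplicates without saying whether these were independent cultures, and the study's methods speak of independent experiments for its data in general without naming the arrays, so p-values measure the spread between arrays. Groups came from the sample labels, and 0 value columns were left unused.

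Comparisons were made with limma 3.58.1 (R 4.3.3), as two-sided tests. They covered 54613 probe sets, without the 62 controls of the platform, and the Benjamini-Hochberg adjustment ran over the whole set. Each line was fitted on its own 6 arrays, the controls likewise, and the difference between the responses on all 12. Of the probe sets 41091 carry 1 gene symbol in the platform annotation, 1801 several and 11721 none. A probe set of IRF9 that also carries RNF31 was not used. On simulated data, 89.0% of 100 probe sets that were shifted by 1 log2 unit were recovered in SNU449 and 98.0% in Hep3B. The share was 65.0% for the difference between the responses. Whether these shares hold for the measured arrays was not tested. On the measured Hep3B arrays 0 of 19775 genes were called, with differences from -1.34 to 2.68 and a lowest adjusted p of 0.0535 (limma). Genes named with values were those called, the one farthest from 0 in each role group per line, the 6 with the largest difference between controls, and pathway genes called after DAAD2; others were added after their values had been seen to account for every member. Of the pathway genes that were not called, IFNB1, IFNL1, IFNA17 and SOCS1 were named outside this rule. The members, role groups and lists were chosen with earlier results of these data known. Alternatives were other fits, scalings, filters, spread models and call rules, the replicate number as a block, and each array left out in turn; those for SOCS3 were chosen after seeing the data. Python 3.11.15, pandas 2.3.3, numpy 2.4.6 and matplotlib 3.10.9 served for tables and figures.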

Additional observations from a re-analysis of the deposited data

Results flagged for a closer look

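The difference between the responses, Hep3B minus SNU449, passed the test of the difference itself (limma, adjusted p under 0.05, all 12 arrays) for 6 probe sets of these genes. By the probe set that stood for the gene they were UBE2L6 (-1.27), IFIT1 (-1.05) and PARP9 (-1.003), of which PARP9 was at -0.26 by its second probe set. By a second probe set they were IRF1 (-0.97), ISG20 (-0.95) and PLSCR1 (-0.92), while the brighter probe sets of the same 3 genes were at -0.79 (IRF1), -0.37 (ISG20) and -0.58 (PLSCR1) and did not pass. The 2 lines had different doses, 2 μM in Hep3B and 20 μM in SNU449, which cannot be told apart from the line.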

How the results depend on the processing

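In Hep3B 0 of the 43 genes were called by limma under each of the alternative fits and with each array left out, beside the 2 higher and 2 lower at an unadjusted p under 0.05. In SNU449 the count of higher genes, 5 in the report, was 9 with all 12 arrays in one fit (and 1 lower, OAS1), 10 by a rule of a 1.5-fold change with an unadjusted p under 0.05, 0 with no moderation of the spread, and between 1 and 5 with an array left out. It was 1 without DAAD2 array 1, without control array 2 or without control array 3, 3 without control array 1, and the same 5 genes without DAAD2 array 2, the one with the high GAPDH difference. UBE2L6 was called in all 6 of those fits, IRF1, IFIT1 and IFIT2 in 2 and PLSCR1 in 1, and the difference of each kept its sign. The 3 genes below 0 in the difference between the responses became 1 with arrays centred on their median, 5 with cyclic loess, 5 with an intensity trend, 1 with no moderation, 8 (and 1 above 0) by the fold rule, 6 by any probe set of the gene, and 1 to 6 with an array left out: 1 without Hep3B DAAD2 array 1 or 2, Hep3B control array 1, SNU449 DAAD2 array 1 or SNU449 control array 2, and 6 without SNU449 DAAD2 array 2. The cause of these shifts was not tested.

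Same-numbered arrays did not all deviate together (correlations of -0.271 to 0.0901 in Hep3B and -0.0762 to -0.00835 in SNU449, and 0.0237 to 0.213 between the controls of the lines, with 1 of 3 over 0.1). Those of different numbers ran from -0.168 to 0.338 in Hep3B and from -0.0595 to 0.111 in SNU449. Deviations from a mean of 3 arrays are tied to each other, so these values neither show nor exclude a pairing by number. With the replicate number as a block, 0 genes were called in Hep3B, 1 was higher in SNU449 (UBE2L6, adjusted p = 0.0259, limma) and 1 was below 0 between the responses (UBE2L6, adjusted p = 0.00682, limma), and between controls 13 were higher and 15 lower. Over all genes the count of higher genes ran from 0 to 738 in SNU449 and from 0 to 330 in Hep3B.

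The signs that turned were all of differences in Hep3B that were not called: with an array left out, IRF1 ran from -0.22 to 0.14 (above 0 without DAAD2 array 3), IFIT1 from -0.14 to 0.082 (above 0 without DAAD2 array 2 and, at 0.046, without control array 1) and IFIT2 from -0.044 (without control array 2) to 0.24. IFIT3 was at -0.35 and PLSCR1 at -0.12 by the probe set with the smallest p, and PLSCR1 was at -0.036 with cyclic loess and -0.037 with quantile normalization. Of the differences of single named genes under these alternatives, 490 kept direction and side, 57 lost a call, 16 gained one and 8 turned sign. Dim genes limit the rest: 12 of the 43 were dim in both SNU449 groups and 17 in both Hep3B groups.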
